A study of Mus musculus with 8 samples.

Results

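The Fc gamma receptors Fcgr1, Fcgr2b, Fcgr3 and Fcgr4 and their shared signaling chain Fcer1g were followed on 8 arrays of tumor-draining lymph nodes from mice bearing B16 melanoma, a mouse melanoma cell line grown under the skin. The 5 genes were selected on the difference between treated and control nodes on these same arrays, and every probe that the array platform's annotation gives to them, matched by gene identifier, was used. They are 5 of the 11487 genes named on the array and are read by 8 of its 45281 probes: 1 probe each for Fcgr1, Fcgr3, Fcgr4 and Fcer1g, and 4 for Fcgr2b. For 4 arrays the tumor had received a single injection of 3M-052, a TLR-7/8 agonist, and for the other 4 of vehicle, once it had reached 30 to 40 mm2. The draining node was taken on day 4 after the injection. The study's methods name young adult female C57BL/6 mice, and both groups carried the tumor, so neither is a tumor-free node. Each group held nodes of 4 separate mice, numbered 1 to 4 in the labels. Whole nodes were used, so that for every value below a change in the number of cells of a type and a change in RNA per cell cannot be told apart.

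Fc gamma receptors bind the constant part of IgG and tie antibody to the cells that carry them. FcγRI (Fcgr1), FcγRIII (Fcgr3) and FcγRIV (Fcgr4) of the mouse are activating receptors of monocytes, macrophages, neutrophils and NK cells in different combinations. They have no activating motif of their own and signal through the common gamma chain (Fcer1g), which carries an ITAM read by the kinase Syk. FcγRIIB (Fcgr2b) is the inhibitory receptor. It carries an ITIM that recruits the phosphatase SHIP-1 (Inpp5d), is the main Fc gamma receptor of B cells, and is also present on myeloid cells. Interferons raise the high-affinity receptor FcγRI on myeloid cells, which is how this receptor is best known in inflammation.

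The genes lie in 2 places of the reference genome (RefSeq annotation of GRCm38.p6). Fcgr2b (chr1:170960558-170976071, minus strand), Fcgr4 (chr1:171018926-171029761, plus strand), Fcgr3 (chr1:171051169-171065915, minus strand) and Fcer1g (chr1:171229572-171234349, minus strand) are neighbors on chromosome 1, and Fcgr1 (chr3:96282909-96293969, minus strand) lies alone on chromosome 3. The 250 bases before a RefSeq transcript start of each gene were searched on both strands for 2 motifs. These were the ISRE core, which is GAAA, any pair of bases and GAAA again, read by interferon regulatory factors, and the PU.1 core GAGGAA, read by a factor of myeloid and B cells. Fcgr1 and Fcgr4 are shown because they had the largest differences between the groups, and Fcgr2b because it is the inhibitory member. The sequences are from RefSeq, 5′ to 3′ on the strand of the gene, and capitals mark the motif letters on either strand.
Fcgr1 (chr3:96293970-96294219, minus strand): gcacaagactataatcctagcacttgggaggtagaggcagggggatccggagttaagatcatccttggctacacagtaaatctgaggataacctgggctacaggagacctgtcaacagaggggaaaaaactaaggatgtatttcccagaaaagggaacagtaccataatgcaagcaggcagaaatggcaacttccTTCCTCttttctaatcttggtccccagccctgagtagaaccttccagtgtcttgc
Fcgr4 (chr1:171018676-171018925, plus strand): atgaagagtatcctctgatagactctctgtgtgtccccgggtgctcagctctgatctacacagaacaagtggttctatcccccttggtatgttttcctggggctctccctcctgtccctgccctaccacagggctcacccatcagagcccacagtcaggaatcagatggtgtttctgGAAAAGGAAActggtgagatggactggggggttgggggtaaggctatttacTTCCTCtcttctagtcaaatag
Fcgr2b (chr1:170976072-170976321, minus strand): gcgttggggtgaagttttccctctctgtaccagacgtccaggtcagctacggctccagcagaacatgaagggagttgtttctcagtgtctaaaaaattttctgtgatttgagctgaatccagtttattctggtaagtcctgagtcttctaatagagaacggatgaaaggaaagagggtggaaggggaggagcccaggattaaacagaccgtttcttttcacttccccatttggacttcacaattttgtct
The Fcgr1 window holds the PU.1 core from base -55 to -50, counted from the start site. The Fcgr4 window holds ISRE core letters from -73 to -64 and the PU.1 core from -22 to -17. The windows given for Fcgr3 belong to transcript starts inside the gene's annotated span and hold the PU.1 core, and those of Fcgr2b and Fcer1g hold neither motif in these letters. Of 27025 annotated genes, 3.46% have the ISRE core in a window of this length and 25.9% the PU.1 core. The matches are a description of the letters, and binding was not measured.

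Over the whole set, 17817 to 20315 probes per array had a detection p-value under 0.05, with a mean intensity of 306 to 461. With 4 arrays a group, precision is limited by their number. Values are log2 intensities after background correction, quantile normalization and an offset of 16. The 19462 probes detected on at least 4 of the 8 arrays were tested with limma, with Benjamini-Hochberg adjustment over all of them. All 8 receptor probes were among these. All 4 arrays of each group detected 7 of the 8, and the Fcgr1 probe was detected on the 4 arrays of 3M-052 nodes and on 3 of the 4 vehicle arrays. Vehicle replicate 3, the array that did not detect it, also held more melanocyte transcripts than any other array (3 kept marker genes, mean log2 level 10.89 against 4.62 to 6.44). Cxcl13, Ccl19, Ccl21a, Madcam1 and Glycam1, transcripts of lymph node stroma and vessels, were all among the kept genes. Of these 5, Ccl21a, Ccl19 and Glycam1 were lower in 3M-052 nodes by limma (log2 differences of -1.21, -0.75 and -1.16, adjusted p = 0.039, 0.020 and 0.020) and Cxcl13 was higher (0.51, adjusted p = 0.046), and their part in the receptor values was not tested. The 7 kept B cell markers had a mean log2 level of 9.99 to 10.29.

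All 8 receptor probes read higher on average in 3M-052 nodes than in vehicle nodes. Since the genes were chosen with this comparison in view, their differences are given as a description, and no p-value is attached to them. On 6 of the 8 probes every 3M-052 array lay above every vehicle array, a pattern found on 5.57% of all kept probes. The same 6 probes, which read Fcgr1, Fcgr4 and Fcgr2b, were past the threshold of an adjusted p of 0.05, against 5.10% of all kept probes in either direction, 2.81% in the higher and 2.29% in the lower. Nothing is read from these counts, since the selection used the same contrast. Taking the brightest probe of each gene, the median log2 difference of the 5 genes was 1.07, and that of all genes with a kept probe was -0.031.

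**Figure D1:**
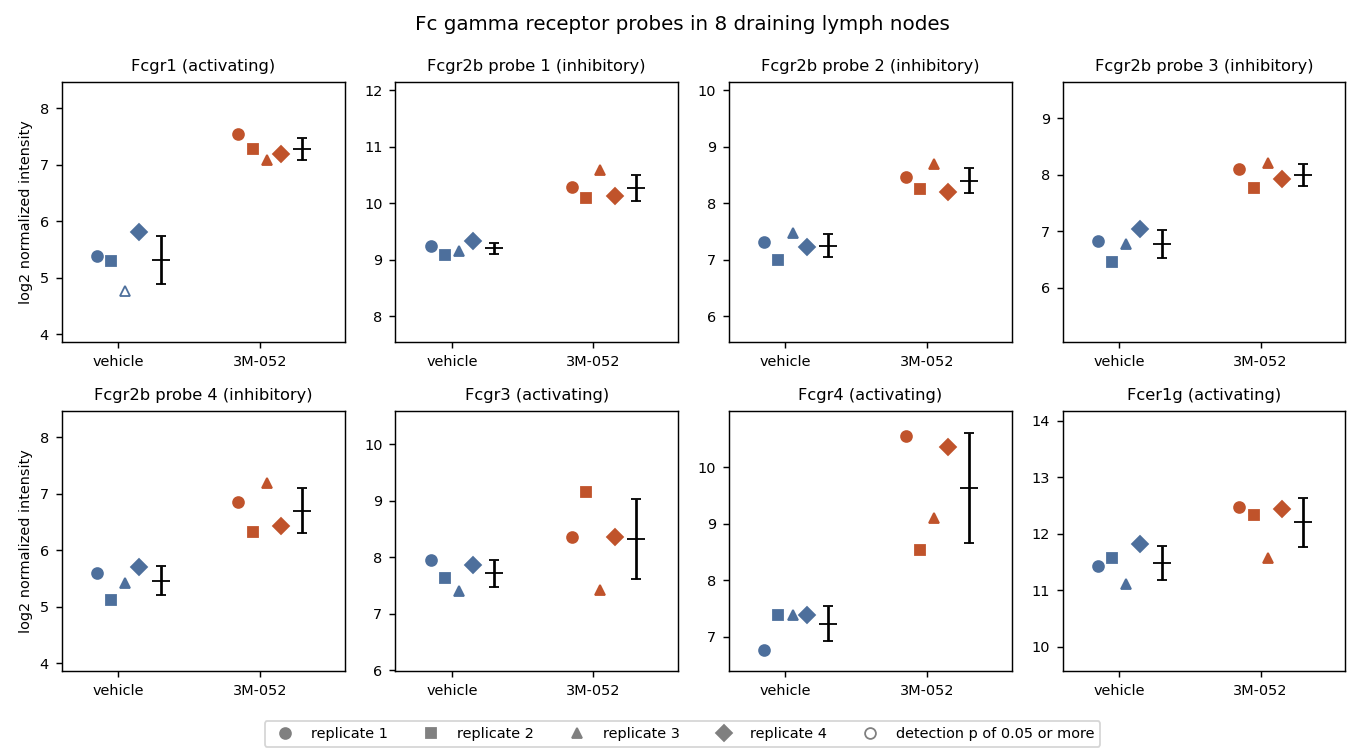
Log2 normalized intensity (y axes, all spanning the same number of log2 units) of the 8 Fc gamma receptor probes in vehicle and 3M-052 nodes, with a symbol per replicate and the mean with its SD (n = 4 nodes) beside them; the open symbol is the array that did not detect Fcgr1. The groups are apart for Fcgr1, Fcgr4 and all 4 Fcgr2b probes, and overlap for Fcgr3 and Fcer1g.

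Fcgr4, the mouse receptor with intermediate affinity for IgG2a and IgG2b, had the largest difference of the family. Its log2 level (probe ILMN_2631161) was 10.55, 8.54, 9.10 and 10.36 in nodes 1 to 4 of the 3M-052 group. In the vehicle group it was 6.78, 7.40, 7.38 and 7.39. All 3M-052 nodes were above all vehicle nodes, but they split among themselves, with replicates 1 and 4 well above replicates 2 and 3. The normalized intensity averaged 934 ± 557 (SD, n = 4) with 3M-052, against 153 ± 28.9 (SD, n = 4) in control nodes. The log2 difference was 2.40 (standard error 0.40), or 5.29-fold, and 0.360% of the kept probes had a larger one. The spread was wider after 3M-052, at an SD of 0.98 on the log2 scale against 0.31 in vehicle nodes. Setting each 3M-052 node against the vehicle node of the same replicate number gave log2 differences of 3.78, 1.14, 1.72 and 2.97. The Fcgr4 window shown above holds the ISRE core letters, while that of Fcgr1, with the next largest difference, does not. A part of these letters in the values was not tested.

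Fcgr1, the high-affinity IgG receptor, was more even across 3M-052 nodes than the other activating members, with an SD of 0.20 on the log2 scale. Its log2 level (probe ILMN_1229523) was 7.55, 7.28, 7.09 and 7.19 in nodes 1 to 4 of the 3M-052 group, against 5.38, 5.30, 4.77 and 5.81 in the vehicle group. The lowest 3M-052 node was 1.28 log2 units above the highest vehicle node. The log2 difference was 1.96 (standard error 0.24), or 3.90-fold. The probe is dim, with scanner intensities of 138 to 232 in 3M-052 nodes and 68.1 to 88.3 in vehicle nodes, so that the size of the difference rests on the background correction. Without that correction the log2 difference was 1.25, and the ratio of the mean scanner intensities was 2.42. Leaving out vehicle replicate 3, the array that did not detect the probe, gave 1.78.

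Fcgr3, the low-affinity activating receptor, overlapped between the groups. Its log2 level (probe ILMN_2687403) was 8.36, 9.16, 7.42 and 8.35 with 3M-052. In the vehicle group it was 7.95, 7.63, 7.40 and 7.86. The 3M-052 nodes covered a range of 1.74 log2 units, with replicate 2 above and replicate 3 below the others, and replicate 3 lay within the vehicle range. The log2 difference was 0.61 (standard error 0.31), and the probe was not past the threshold. Leaving out 3M-052 replicate 2 lowered the difference to 0.33, and leaving out 3M-052 replicate 3 raised it to 0.91. Replicate 2 of the 3M-052 group, the highest for Fcgr3, was the lowest of that group for Fcgr4.

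The common gamma chain Fcer1g, without which these activating receptors do not reach the surface, had a smaller difference than Fcgr1 and Fcgr4. Its log2 level (probe ILMN_2748875) was 12.48, 12.34, 11.57 and 12.43 with 3M-052 and 11.44, 11.58, 11.11 and 11.83 with vehicle. Replicate 3 of the 3M-052 group was again low and lay within the vehicle range, while the other 3 nodes lay above it. The normalized intensity averaged 4865 ± 1242 (SD, n = 4) with 3M-052, against 2920 ± 597 (SD, n = 4) in control nodes. The log2 difference was 0.72 (standard error 0.22), or 1.64-fold, and the probe was not past the threshold. Same-numbered nodes differed by 1.05, 0.76, 0.46 and 0.60. Blocking on the replicate number cut the standard error to 0.12 and put the probe past the threshold, making 7 member probes. Over all 19462 kept probes the block gave 1232 higher and 1499 lower calls, against 546 and 446 without it. Without 3M-052 replicate 3 the log2 difference was 0.94.

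Fcgr2b, the inhibitory receptor, was higher in 3M-052 nodes on all 4 of its probes. On the brightest (ILMN_1228657) the log2 level was 10.29, 10.10, 10.59 and 10.13 with 3M-052. In the vehicle group it was 9.24, 9.10, 9.16 and 9.33. No 3M-052 node overlapped with a vehicle node, and the vehicle nodes lay within 0.23 log2 units of each other. The normalized intensity averaged 1252 ± 205 (SD, n = 4) with 3M-052, against 592 ± 41.3 (SD, n = 4) in control nodes, a log2 difference of 1.07 (standard error 0.15), or 2.10-fold. The other probes (ILMN_3102376, ILMN_3029178 and ILMN_2447970) gave log2 differences of 1.15, 1.23 and 1.24, with standard errors of 0.19, 0.19 and 0.24. On each of the 4 probes 3M-052 replicate 3, the node of that group with the lowest Fcgr3 and Fcer1g, was the highest. The dimmest probe, ILMN_2447970, had a log2 difference of 0.76 without background correction. The extracellular parts of FcγRIIB and FcγRIII are closely related in the mouse, and the position of each probe in its transcript was not analysed here, so that signal from the other gene cannot be told apart.

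**Figure D2:**
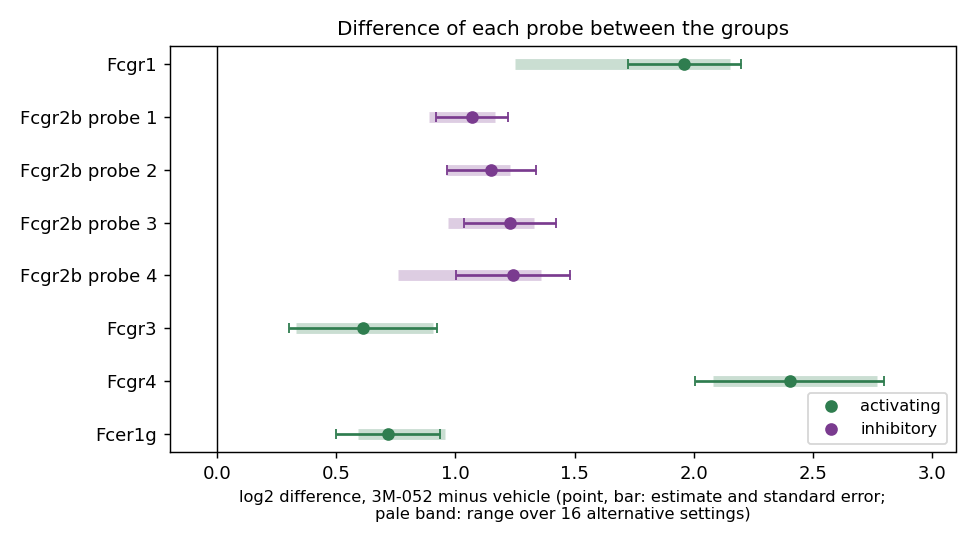
Log2 difference (x axis, 3M-052 minus vehicle) of each of the 8 probes, with the estimate and its standard error as a point and bar and the range over 16 other settings of the processing as a pale band. All bands lie above 0, the 4 Fcgr2b probes lie between 1.07 and 1.24, and the band of Fcgr1 reaches down to 1.25, its value without background correction.

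The balance of activating and inhibitory receptors was described as the difference of their log2 values on each array, of which only the shift between groups can be read. The mean of the 4 activating members minus Fcgr2b was 0.35 log2 units higher in 3M-052 nodes (standard error 0.31, SD 0.60 in 3M-052 and 0.19 in vehicle nodes, n = 4 each), and the groups overlapped. Leaving out 3M-052 replicate 3 raised the shift to 0.64, leaving out replicate 1 or 4 of that group lowered it to 0.24, and skipping the background correction gave 0.14. The members differed in their shift relative to Fcgr2b. Fcgr4 gained 1.33 log2 units on it (standard error 0.54) and Fcgr1 gained 0.89 (standard error 0.25). Skipping the background correction left 1.10 (standard error 0.50) for Fcgr4 and 0.23 (standard error 0.17) for Fcgr1. Fcgr3 and Fcer1g had shifts of -0.46 (standard error 0.47) and -0.35 (standard error 0.34), each within or near its own standard error. Replicate 3 of the 3M-052 group had the lowest value of the 8 arrays for Fcgr3 and for Fcer1g against Fcgr2b. For Fcgr4, all 3M-052 nodes were above all vehicle nodes relative to Fcgr2b, with replicates 1 and 4 high and replicates 2 and 3 close to the vehicle range. For Fcgr1, all 3M-052 nodes were also above all vehicle nodes relative to Fcgr2b, with 3M-052 replicate 3 close to the highest vehicle node (-3.50 against -3.51).

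**Figure D3:**
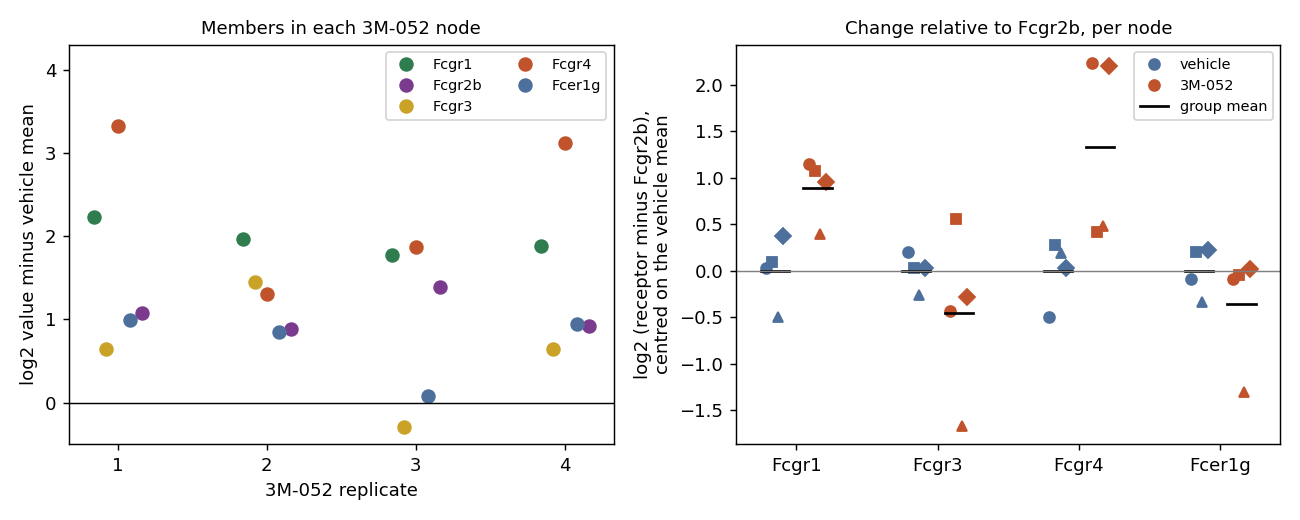
Left, log2 value of the brightest probe of each gene minus its vehicle mean (y axis) in 3M-052 replicates 1 to 4 (x axis). Right, each activating member minus Fcgr2b on the log2 scale, centred on the vehicle mean, for every node (circle, square, triangle and diamond for replicates 1 to 4) with the group means as lines: Fcgr4 is 3.32 and 3.12 above its vehicle mean in replicates 1 and 4 and 1.30 and 1.87 in replicates 2 and 3, and replicate 3 is lowest for Fcgr3 and Fcer1g.

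Within the groups the members did not vary as a unit. Deviations from the group means, over 8 arrays, correlated at 0.69 to 0.96 among the 4 Fcgr2b probes, which read the same gene. Fcer1g followed Fcgr1 (r = 0.74) and Fcgr3 (r = 0.72) and less so Fcgr4 (r = 0.40). The brightest Fcgr2b probe ran opposite to Fcgr3 (r = -0.70) and Fcer1g (r = -0.53). The other Fcgr2b probes had r of -0.44 to -0.62 with Fcgr3 and -0.20 to -0.74 with Fcer1g. Within the 3M-052 group, replicate 3 was highest for Fcgr2b and lowest for Fcgr3 and Fcer1g, and its part in these r was not tested. Fcgr4 had r = 0.175 with Fcgr1 and -0.23 with Fcgr3. The points share arrays and normalization, they are few, and the correlations are given as a description.

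Of 10538 other genes with a kept probe, those most like the mean of the 5 members over the 8 arrays, both groups included, were Speer1, Slc16a10, Ly86, Ifitm1 and Ly6c1, with Pearson r of 0.987 to 0.981. Ly86 encodes MD-1, the partner of the B cell and myeloid receptor RP105, Ifitm1 is an interferon-induced membrane protein, Ly6c1 is a surface antigen of the Ly6 family, and Slc16a10 is a transporter of aromatic amino acids. The likeness includes the difference between the groups. When only deviations from the group means were compared, none of these genes was among the 5 closest, which were Fam177a, Derl2, Dpm2, Pts and Tsr3, at r of 0.997 to 0.978. Picking the top of 10538 genes over 8 arrays gives high r by itself. The names are a description, and shared regulation was not tested.

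Markers of the cells that carry these receptors were read on the same arrays. Of 16 macrophage and monocyte markers, 9 were kept, and limma called none higher or lower. The log2 of their summed normalized intensity was 14.05 to 14.36 in 3M-052 nodes and 13.86 to 14.41 in vehicle nodes. Lyz2, Csf1r and Timd4, the lysozyme, the growth factor receptor and a phosphatidylserine receptor of macrophages, had log2 differences of -0.015, 0.17 and 0.32. Lyz2 is the brightest and dominates the sum. The 9 differences ran from -0.57 for Marco, a scavenger receptor, to 0.88 for Adgre1, a surface antigen of macrophages (adjusted p = 0.42 and 0.15), and Ccr2 and Cd163 were not detected on enough arrays to be kept. Of 13 neutrophil markers 11 were kept and none was called. Their summed level varied more, at 9.64 to 12.57 in 3M-052 and 10.31 to 11.37 in vehicle nodes. It was highest in 3M-052 replicate 2 and lowest in 3M-052 replicate 3, the nodes in which Fcgr3 was also highest and lowest of the group, and its part in the Fcgr3 values was not tested. Of 10 B cell markers 7 were kept and none was called, with summed log2 levels of 14.03 to 14.37 and 14.06 to 14.32. Among dendritic cell markers 1 of 4 kept genes was lower (Siglech, of plasmacytoid dendritic cells), and none of 5 kept NK cell markers was called. Of 8 mast cell and basophil markers, cells that use Fcer1g with the IgE receptor, 7 were kept and 1 was lower, the growth factor receptor Kit (adjusted p = 0.031), with a median log2 difference of -0.63 and summed levels of 9.27 to 10.33 with 3M-052 and 10.07 to 10.86 with vehicle. Its part in the Fcer1g values was not tested. Fat cell markers (7 of 11 kept, 0 called) were lower on average in 3M-052 nodes, but the groups overlapped. The summed level of these markers was 10.31 to 12.16 in 3M-052 nodes and 10.97 to 14.24 in vehicle nodes, lowest of the vehicle group in replicate 4. With their mean as a covariate the log2 differences were 2.47 for Fcgr4, 1.72 for Fcgr1, 0.89 for Fcgr2b, 0.82 for Fcgr3 and 0.74 for Fcer1g, and 2 of the 8 probes were past the threshold. Over all 19462 kept probes this covariate left 158 higher and 27 lower, against 546 and 446 without it. With vehicle replicate 3, the node with high melanocyte transcripts, left out, the log2 differences were 2.47 for Fcgr4, 1.78 for Fcgr1, 1.06 for Fcgr2b, 0.51 for Fcgr3 and 0.59 for Fcer1g.

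The other genes of Fc receptor pathways were taken from 6 lists of 56 genes, 36 of which had a kept probe. Of these, 2 were higher and 2 lower by limma, and the rest did not pass. This is 11.1%, against 4.70% of all genes with a kept probe, and the median log2 difference was 0.075. Blocking on the replicate number gave 7 higher and 2 lower genes, adding Fcrla, Lat2 and the C-type lectins Clec4e, Clec4d and Clec4n (adjusted p = 0.023, 0.028, 0.016, 0.034 and 0.0056). The block also raised the calls over all 19462 kept probes, from 546 higher and 446 lower to 1232 and 1499. These lists were written with earlier results of the data known.

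Among 9 other Fc receptors and relatives, Fcrl5 and Fcrl1 rose and none fell. Fcrl5, an Fc receptor-like protein of B cell subsets and plasma cells, had log2 levels of 7.47, 6.66, 8.32 and 7.16 with 3M-052, against 5.25, 5.32, 5.10 and 5.34 with vehicle. It was highest in 3M-052 replicate 3, the node with the highest Fcgr2b. The log2 difference was 2.15 (standard error 0.31, adjusted p = 0.0024 from limma). Without background correction the log2 difference was 1.40 (adjusted p = 0.0061 from limma). The call also held without any one array (adjusted p up to 0.015) and with the fat covariate (0.040). It was lost with the methods' t-test after adjustment (0.059), as were those of Fcrl1, Pik3r1 and Pik3cd (0.076, 0.093 and 0.059). Fcrl1, a B cell coreceptor of the same family, had a log2 difference of 0.69 (standard error 0.16, adjusted p = 0.031), with groups that did not overlap. Its call was lost without 3M-052 replicate 1 or 4 (adjusted p = 0.092 and 0.080), without vehicle replicate 1, 2 or 3 (0.12, 0.088 and 0.096), with the fat covariate (0.33) and without the filter on dim probes (0.061). Its second probe gave 0.58 (adjusted p = 0.068). Plasma cell markers were higher in the same nodes, with 5 of 6 kept genes called. Their summed log2 level was 14.25 to 14.65 in 3M-052 nodes and 13.04 to 13.53 in vehicle nodes. Within the 3M-052 group this sum was lowest in replicate 3, where Fcrl5 was highest. The part of these markers in the Fcrl5 and Fcrl1 values was not tested.

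The remaining receptors of this list did not pass. Fcgrt, the neonatal receptor that recycles IgG, and Fcer2a, the low-affinity IgE receptor CD23 of B cells, had log2 differences of -0.55 and -0.48 (adjusted p = 0.16 and 0.19). Fcmr, the IgM receptor, was at -0.065 and Trim21, the antibody receptor of the cytosol, at 0.12 (adjusted p = 0.81 and 0.76). The IgG heavy chains Ighg2b, Ighg2c and Ighg3 had no named probe, so they were not read. Ighg1, the IgG1 heavy chain and the single ligand gene with a kept probe, had a log2 difference of 1.55 (adjusted p = 0.16), with groups that overlapped. Its level was 9.34 in 3M-052 replicate 3 and 6.58 to 6.91 in the other 3M-052 nodes, and without replicate 3 the difference was 0.88.

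Of 5 kept receptors that borrow the gamma chain, none passed limma's test, while 3 had an unadjusted p under 0.05 (none after adjustment of the methods' t-test). These were the C-type lectins Clec4e (Mincle), Clec4d (MCL) and Clec4n (Dectin-2), myeloid receptors for fungal and mycobacterial glycans and lipids. Their log2 differences were 1.34, 0.95 and 0.91 (adjusted p = 0.069, 0.071 and 0.15), and Clec4d was detected on 1 of the 4 vehicle arrays. With the replicate number as a block, which raised the calls over all kept probes, the 3 lectins passed (adjusted p = 0.016, 0.034 and 0.0056). Clec4e and Clec4d were highest in 3M-052 replicate 3, where Fcer1g was lowest within that group, and Clec4n was highest in 3M-052 replicate 2.

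In the activating signaling list, 2 of 12 kept genes fell and none rose. Pik3r1 and Pik3cd, the regulatory and catalytic subunits of a PI3 kinase used downstream of many immune receptors, had log2 differences of -0.70 (standard error 0.15) and -0.55 (standard error 0.14), with adjusted p of 0.025 and 0.042 and groups that did not overlap. Median centering ended both calls (adjusted p = 0.19 and 0.22), as did leaving out 3M-052 replicate 1 (0.080 and 0.11), 3M-052 replicate 4 (0.058 and 0.066) or vehicle replicate 1 (0.099 and 0.13), 2 (0.094 and 0.11) or 3 (0.079 and 0.12) and the fat covariate (0.32 and 0.40). For Pik3cd the call also failed in the absence of 3M-052 replicate 3 (0.060) or vehicle replicate 4 (0.054), with no filter on dim probes (0.097), in the authors' table (0.062) and without the variance trend (0.066). The Pik3r1 call was at the threshold without the variance trend (0.050). A second probe of Pik3r1 gave -0.77 (adjusted p = 0.019 by limma), and a further, dimmer one gave -0.39 and did not pass (adjusted p = 0.39). A second probe of Pik3cd gave -0.12 (adjusted p = 0.87). T cell markers, of cells that also use this kinase, were lower in the same nodes, with 3 of 5 kept genes called and a summed log2 level of 13.44 to 14.03 against 14.50 to 14.92, and their part in these values was not tested. Syk, the kinase that reads the ITAM, had a log2 difference of 0.17 (standard error 0.36), Btk of 0.42 and Plcg2 of 0.33, and none of them passed (adjusted p = 0.84, 0.15 and 0.29).

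None of the 6 inhibitory signaling genes passed limma's test, and 0 had an unadjusted p under 0.05 or passed the methods' t-test after adjustment. Inpp5d, the SHIP-1 phosphatase through which FcγRIIB acts, had a log2 difference of -0.010 (standard error 0.17) and Ptpn6, the SHP-1 phosphatase, of 0.013 (standard error 0.12). The same was true of the 3 kept subunits of the NADPH oxidase, which makes the oxidative burst of phagocytes, at 0.072 for Cyba, 0.079 for Ncf1 and 0.11 for Ncf4 (0 with an unadjusted p under 0.05, and 0 by the methods' t-test).

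**Figure D4:**
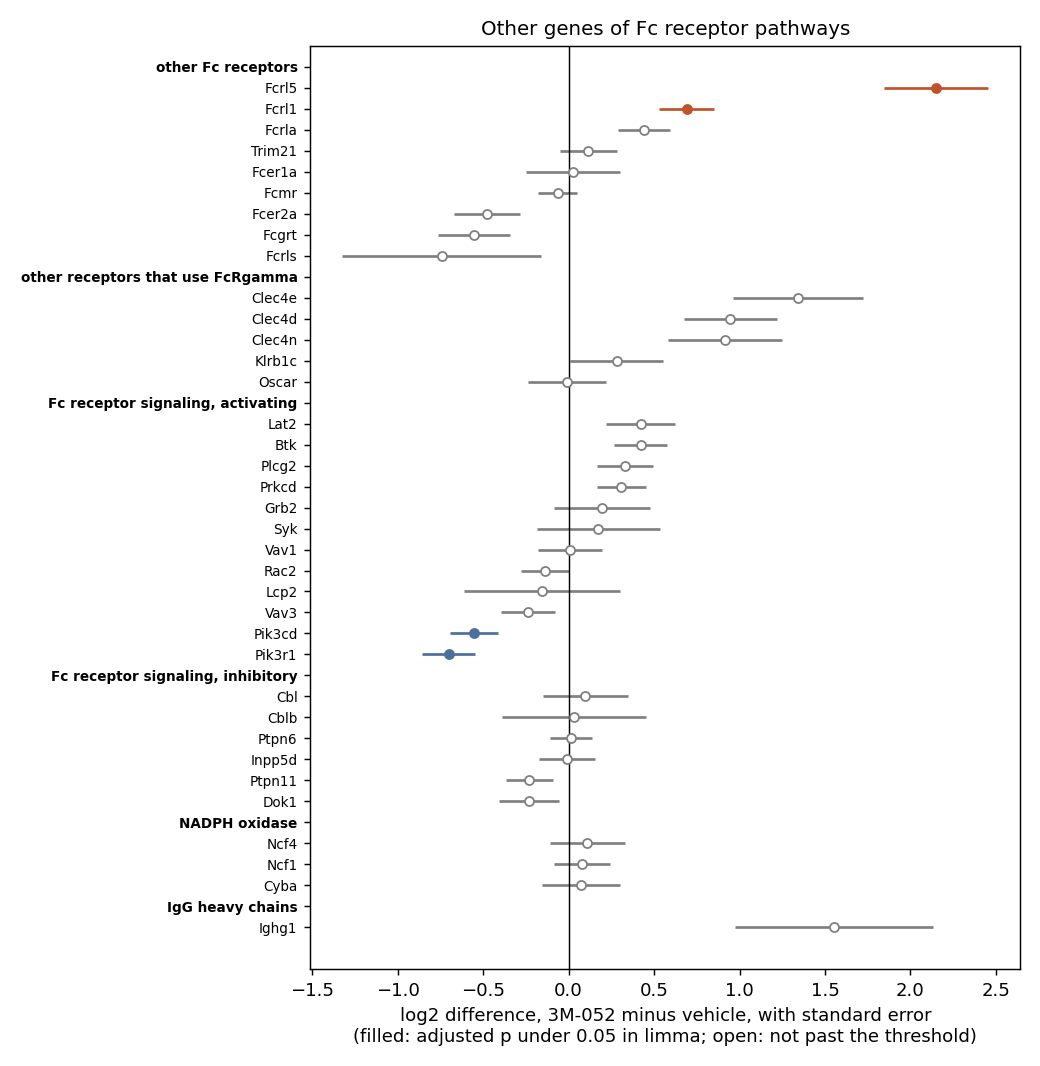
Log2 difference (x axis, 3M-052 minus vehicle) with its standard error for the 36 kept genes of the 6 Fc receptor pathway lists, n = 4 nodes per group. Filled points passed an adjusted p of 0.05 in limma: Fcrl5 and Fcrl1 are higher, Pik3r1 and Pik3cd are lower, and the rest are open.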

How the data were processed

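Total RNA of draining lymph nodes was amplified in 2 rounds, biotin labeled and hybridized to Illumina mouse bead arrays. The authors deposited the scanner's intensity for each probe, not normalized, with a detection p-value from GenomeStudio (version: not given in the sources used here). They also deposited a table of normalized intensity for 21765 probes, made by a method not given there. Intensities were corrected from the detection p-values and quantile normalized with neqc (offset 16), and tested in limma 3.58.1 (R 4.3.3; lmFit, then eBayes with trend). The procedure was tested on simulated data. Symbols came from the platform annotation (18216 probes with 1 gene, 8 with several left unnamed), updated through gene identifiers, and 10543 genes had a kept probe, of which the brightest is used. The members and lists were chosen with earlier results of these data known. The rule for named genes was all member probes, up to 4 called genes per pathway list and direction, and the 5 genes most like the members by each measure; marker genes come from the 3 brightest of each list, and others were chosen after their values were seen. Labels share replicate numbers, and deviations of same-numbered arrays correlated at 0.19, 0.43, 0.25 and 0.57, each above 0.1, and were therefore treated as pairs in the blocked alternative, although no source states a pairing. One label names tumors as the RNA source, and the methods name nodes, which was used.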

Additional observations from a re-analysis of the deposited data

Results flagged for a closer look

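In groups of 4 arrays, a value was singled out when its gap to the nearest array took more of the group's range than Dixon's critical value, which chance does in about 1 of 20 groups. Of 26 groups of values, 3 had such an array. For Fcgr4, vehicle replicate 1 was low, at a log2 level of 6.78 against 7.38 for the nearest vehicle node, and the gap took 0.976 of the range. For Fcer1g, 3M-052 replicate 3 was low, at 11.57 against 12.34, and the gap took 0.839 of the range. For Pik3r1, vehicle replicate 4 was low, at 11.18 against 11.61, and the gap took 0.917 of the range.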

How the results depend on the processing

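All 8 receptor probes stayed higher in 3M-052 nodes in each of 16 other settings, and 122 of these 128 values lay within 1 SD of the main value. Dropping the filter or the variance trend, or blocking on the replicate number, cannot change a log2 difference, so these settings repeat the main values. Leaving out 1 array can move a group mean only in part. The counts are therefore a description and no test of the differences. Without background correction the log2 differences were 1.25 for Fcgr1 and 0.97 and 0.76 for the Fcgr2b probes ILMN_3029178 and ILMN_2447970. With the fat covariate they were 0.89, 1.00 and 0.90 for the Fcgr2b probes ILMN_1228657, ILMN_3029178 and ILMN_2447970, with 2 member probes past the threshold. Leaving out 1 array gave 5 to 7 member probes past the threshold and log2 differences of 1.78 to 2.15 for Fcgr1, 2.08 to 2.77 for Fcgr4, 0.33 to 0.91 for Fcgr3, 0.59 to 0.94 for Fcer1g and 0.96 to 1.13, 1.05 to 1.23, 1.14 to 1.32 and 1.06 to 1.36 for the Fcgr2b probes from brightest to dimmest. The shift of activating members against Fcgr2b was 0.24 to 0.64. Over all probes, 546 were higher and 446 lower (55.0% higher), and leaving out 1 array gave 269 to 667 and 115 to 661. Median centering left 145 lower (428 higher, 74.7%), no filter on dim probes 255 lower, array weights 838 higher and 869 lower, the replicate block 1232 and 1499, the fat covariate 158 and 27, and the methods' t-test 1486 and 2176 before and 118 and 98 after adjustment. Of the pathway genes, 2 were higher and 2 lower, and leaving out 1 array gave 1 to 4 and 0 to 2. The count of higher genes was 1 with no filter, 5 with array weights, 7 with the replicate block, 1 with the fat covariate and 7 and 0 with the methods' t-test before and after adjustment. The count of lower genes was 0 with median centering, 1 with no filter, 1 in the authors' table, 0 without the variance trend, 0 with the fat covariate and 0 with the adjusted t-test. The cause was not tested. The replicate block ended no call among the member probes and the 36 pathway genes. Dim probes such as Fcgr1 are limited by signal over background.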
